A study of Mus musculus with 18 samples.

Results

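The CD300 molecules are a family of immunoglobulin-fold receptors on the surface of myeloid cells, and 7 of them (Cd300a, Cd300c, Cd300e, Cd300lb, Cd300ld, Cd300lf and Cd300lg) were followed here in mouse macrophages given type 2 cytokines with or without TNFa. Members were taken as the rows of the gene count table whose Ensembl identifier maps to these symbols in GENCODE for GRCm38, which gave 7 genes of 48794 in the table. The family was chosen on its levels in these same 18 libraries, in CPM (reads of a gene relative to the scaled total of its library) in the 3 groups. Because of that choice, the levels, fold changes and threshold calls of the members are given below as a description, without p-values. Bone marrow-derived macrophages (BMDMs) are macrophages grown in culture from bone marrow precursors. They came from male C57BL/6 mice and were grown for 7 days in recombinant human M-CSF at 50 ng/ml. During the last 24 hours all cells had M-CSF at 10 ng/ml. The IL4_IL13_TNFa group also had mouse IL-4, IL-13 and TNFa at 10 ng/ml each, the IL4_IL13 group had IL-4 and IL-13 at 10 ng/ml each, and the Control group had M-CSF alone. Each group had 6 libraries of poly(A)-selected RNA. Whether replicates were separate mice or separate dishes is not in the labels, so the p-values below speak only of the variation seen among these 18 libraries, part or all of which may be technical.

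CD300 receptors carry a single extracellular immunoglobulin domain that binds lipids such as phosphatidylserine, phosphatidylethanolamine and ceramide on dying cells, on vesicles and on the cell's own membrane. The family is paired: inhibitory members have long cytoplasmic tails with ITIM motifs that recruit the phosphatases SHP-1 (Ptpn6), SHP-2 (Ptpn11) and SHIP1 (Inpp5d), whereas activating members have short tails and signal through the ITAM-bearing adaptors DAP12 (Tyrobp) or FcRγ (Fcer1g) to the kinase Syk. In macrophages and other myeloid cells the family is known for setting the threshold of cell activation and for tuning the uptake of dead cells.

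Total counts per library were between 14793404 and 20056125, and 13177 genes passed the filter on low counts. All 8 macrophage markers had at least 1 CPM in the IL4_IL13 and Control groups and 7 of 8 had it in the IL4_IL13_TNFa group, with summed levels of 8336 to 9123 CPM in IL4_IL13_TNFa, 8530 to 10200 CPM in IL4_IL13 and 14678 to 25191 CPM in Control libraries. Of other cell types, 3 marker lists had higher sums in every IL4_IL13_TNFa library than in any other library, and in IL4_IL13_TNFa libraries most of each sum came from 1 gene. The 6 dendritic cell markers summed to 34.9 to 37.9 CPM in IL4_IL13_TNFa, 2.77 to 5.68 CPM in IL4_IL13 and 1.26 to 3.64 CPM in Control libraries, of which Zbtb46 averaged 33.9 CPM in IL4_IL13_TNFa, 2.76 CPM in IL4_IL13 and 0.709 CPM in Control. The 3 eosinophil markers summed to 46.8 to 53.6 CPM in IL4_IL13_TNFa, 19.2 to 23.1 CPM in IL4_IL13 and 0.710 to 1.64 CPM in Control libraries, of which Siglecf averaged 50.7 CPM in IL4_IL13_TNFa, 20.6 CPM in IL4_IL13 and 1.23 CPM in Control, with Epx, which defines eosinophils, at 0 counts throughout. The 10 markers of neutrophils and granule precursors summed to 12.8 to 18.02 CPM in IL4_IL13_TNFa, 4.09 to 6.62 CPM in IL4_IL13 and 0.818 to 3.14 CPM in Control libraries, of which Cxcr2 averaged 14.03 CPM in IL4_IL13_TNFa, 4.61 CPM in IL4_IL13 and 0.0369 CPM in Control, with Ly6g at 0 counts throughout. Their part in the results was not tested. Arg1, the arginase induced by IL-4, averaged 85.1 ± 20.9 CPM in IL4_IL13_TNFa, 645.5 ± 219 CPM in IL4_IL13 and 0.470 ± 0.335 CPM in Control libraries (SD, n = 6 each). Nfkbia, the NF-kB inhibitor induced by TNFa, averaged 356.6 ± 14.9 CPM in IL4_IL13_TNFa, 63.7 ± 5.12 CPM in IL4_IL13 and 112 ± 7.37 CPM in Control libraries (SD, n = 6 each). Control replicate 1 stood apart from the other Control libraries, with 14678 CPM of macrophage markers against 21232 to 25191 CPM and with 17.2 CPM of 6 stromal markers against 94.3 to 552.9 CPM. Replicate 1 also had the lowest stromal sum in IL4_IL13 (47.5 CPM) and in IL4_IL13_TNFa libraries (50.1 CPM). Replicate 6 had the highest in all 3 groups, at 310.5 CPM in IL4_IL13_TNFa, 482.2 CPM in IL4_IL13 and 552.9 CPM in Control. The part of stromal cells in the results was not tested. Without Control replicate 1, 68.5% of genes in place of 59% passed the threshold for IL4_IL13 over Control, and member calls, and list counts that move by over 1.5 times, are given both ways.

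All 7 genes lie on mouse chromosome 11 (GRCm38, GENCODE coordinates). Cd300a, on the plus strand, starts the cluster at chr11:114890041, and Cd300lf, on the minus strand, ends it at 115133992, 244 kb away. Between them, all on the minus strand, lie Cd300lb, Cd300c, Cd300ld and Cd300e, together with the near relatives Cd300c2, Cd300ld2, Cd300ld3, Cd300ld4 and Cd300ld5. Cd300lg lies 12.8 Mb away at chr11:102041509-102055620, on the plus strand. Upstream sequences of 6 members were found in the RefSeq promoter table (GRCm38.p6). The 250 bases before the start are shown for the 2 most abundant members in cytokine-treated cells (Cd300ld and Cd300lb) and for the 2 inhibitory members (Cd300a and Cd300lf), read 5′ to 3′ in the direction of transcription, with matches to the searched motifs in capitals.
Cd300ld, minus strand, chr11:114989887-114990136: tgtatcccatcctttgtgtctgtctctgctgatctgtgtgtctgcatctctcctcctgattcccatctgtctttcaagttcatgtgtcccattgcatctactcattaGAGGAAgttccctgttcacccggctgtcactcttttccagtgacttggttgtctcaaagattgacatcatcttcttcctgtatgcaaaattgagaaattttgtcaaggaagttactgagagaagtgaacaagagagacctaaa
Cd300lb, minus strand, chr11:114934372-114934621: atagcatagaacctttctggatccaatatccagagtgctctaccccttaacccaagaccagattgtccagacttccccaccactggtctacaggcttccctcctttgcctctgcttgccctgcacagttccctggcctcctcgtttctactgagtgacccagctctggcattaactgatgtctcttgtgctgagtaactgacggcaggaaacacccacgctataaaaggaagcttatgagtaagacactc
Cd300a, plus strand, chr11:114889791-114890040: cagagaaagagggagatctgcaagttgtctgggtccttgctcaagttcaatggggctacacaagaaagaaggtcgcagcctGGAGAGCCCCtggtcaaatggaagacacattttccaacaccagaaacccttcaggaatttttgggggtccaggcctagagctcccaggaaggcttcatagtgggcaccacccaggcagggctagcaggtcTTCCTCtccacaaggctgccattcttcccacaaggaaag
Cd300lf, minus strand, chr11:115133993-115134242: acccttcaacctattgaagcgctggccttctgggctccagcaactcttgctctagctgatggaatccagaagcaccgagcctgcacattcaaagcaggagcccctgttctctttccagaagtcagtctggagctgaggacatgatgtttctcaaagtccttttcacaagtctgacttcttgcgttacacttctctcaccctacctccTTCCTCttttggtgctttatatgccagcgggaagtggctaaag

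Motifs were searched on both strands in the 250 bases before the start. They were the STAT6-type motif TTCNNNNGAA, the STAT motif TTCNNNGAA, the PU.1 core GAGGAA, the AP-1 motif TGANTCA and the NF-kB consensus. The PU.1 core was present in 3 of the 6 member windows (Cd300a, Cd300ld and Cd300lf), against 23.3% of 32851 promoter windows in the table. It began 143 bases before the start of Cd300ld, and on the opposite strand it lay 39 to 34 bases before the start of Cd300a and 43 to 38 bases before that of Cd300lf. The NF-kB consensus was present in 1 member window, that of Cd300a, 169 to 160 bases before the start, against 3.9% of all windows. The STAT motif with a spacing of 3 occurred in the window of Cd300e, against 7.02% of all windows. No member window held the STAT6-type motif (5.85% of all windows) or the AP-1 motif (6.75%), which says only that these letters were not in these 250 bases. The window of Cd300lb held no match to any of the 5.

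Of the 7 members, Cd300lb and Cd300ld were the most abundant in macrophages exposed to the type 2 cytokines, and with TNFa added the inhibitory members, Cd300e and Cd300lg were lower while Cd300lb and Cd300ld stayed abundant. Levels were compared between genes per kilobase of exon. The near relative Cd300c2, which is not among the 7, stood at 245 CPM per kb in IL4_IL13_TNFa, 176 in IL4_IL13 and 165 in Control libraries, and it lay above every member in 6 of 6 IL4_IL13_TNFa and 6 of 6 Control libraries. Among the members, the order in IL4_IL13_TNFa libraries was Cd300ld (208 CPM per kb), Cd300lb (181), Cd300a (11.03) and Cd300e (0.393), and the libraries of Cd300ld, Cd300lb and Cd300a did not overlap between neighbours in that order. The remaining members, Cd300c (0.197 CPM per kb), Cd300lg (0.0847) and Cd300lf (0.0414), overlapped with their neighbours. In IL4_IL13 libraries it was Cd300lb (219 CPM per kb), Cd300ld (180), Cd300a (41.4), Cd300lg (7.02), Cd300lf (2.14), Cd300e (0.993) and Cd300c (0.443), with overlap between Cd300lf and Cd300e and between Cd300e and Cd300c. In Control libraries Cd300lb was highest of the members (125 CPM per kb), Cd300a (49.1) and Cd300ld (43.9) overlapped, and Cd300e (4.54), Cd300lf (4.08), Cd300lg (2.25) and Cd300c (0.311) followed, with overlap between Cd300e and Cd300lf. The place of Cd300lf depends on the length used, since its longest coding transcript has 1.885 kb and all its exons together have 5.149 kb.

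**Figure D1:**
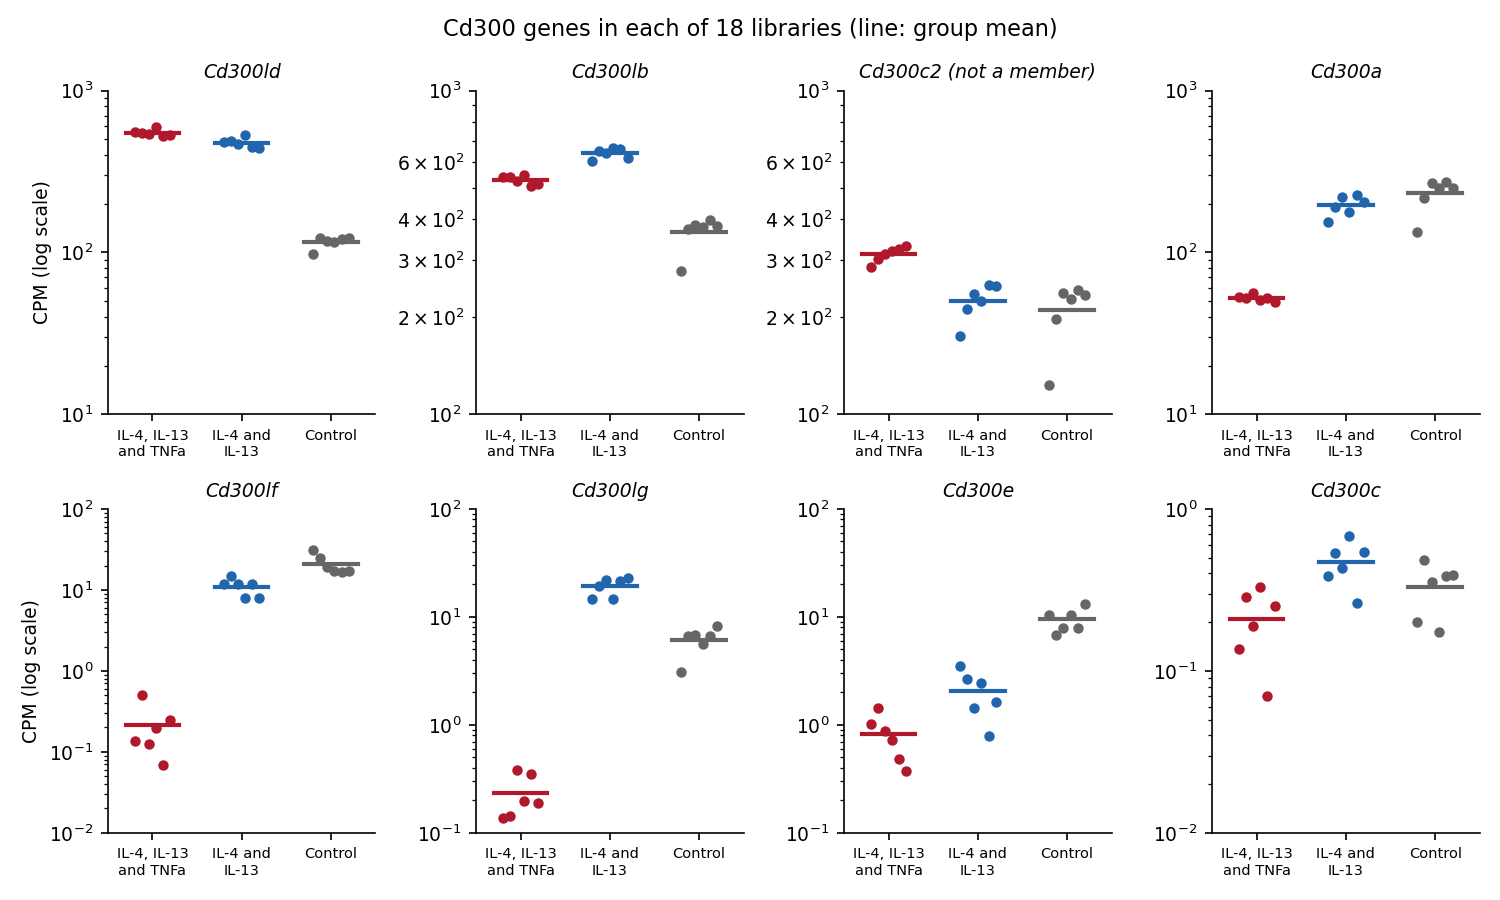
CPM (log scale) of the 7 members and of Cd300c2, a near relative, in each library of the IL4_IL13_TNFa, IL4_IL13 and Control groups (points: 6 libraries a group; lines: group means). Cd300ld and Cd300lb were highest in cytokine-treated cells, and Cd300lf and Cd300lg sat below 0.5 CPM in all 6 IL4_IL13_TNFa libraries.

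Among the activating members, Cd300ld, which couples to FcRγ, had the largest gain. Its lowest, median and highest levels were 525.8, 544.5 and 597.8 CPM in IL4_IL13_TNFa libraries, 442.8, 475.1 and 528.4 CPM in IL4_IL13 libraries and 97.8, 119 and 122.7 CPM in Control libraries. Every cytokine-treated library lay above every Control library, whereas the IL4_IL13_TNFa and IL4_IL13 libraries overlapped. The gain with IL-4 and IL-13 over Control was 4.10-fold (log2 fold change 2.03 ± 0.06 SE), and that with all 3 cytokines over Control was 4.73-fold (2.24 ± 0.06). In bulk RNA, a change in how many cells carry a transcript and a change in its amount per cell cannot be told apart, for Cd300ld as for every other gene. Between IL4_IL13_TNFa and IL4_IL13 the log2 fold change was 0.21 ± 0.06 with TMM scaling, past the threshold, and 0.002 with scaling by library totals, not past it.

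Cd300lb, which couples to DAP12, was the most abundant member by CPM in IL4_IL13 cells. Its lowest, median and highest levels were 506.7, 533.6 and 548.7 CPM in IL4_IL13_TNFa libraries, 607.6, 644.5 and 664.6 CPM in IL4_IL13 libraries and 276.8, 379.8 and 398.6 CPM in Control libraries. The 3 groups did not overlap: IL4_IL13 lay highest, IL4_IL13_TNFa between, and Control lowest. The log2 fold change was 0.81 ± 0.07 (1.75-fold) for IL4_IL13 over Control, -0.27 ± 0.07 for IL4_IL13_TNFa over IL4_IL13, and 0.53 ± 0.07 (1.45-fold) for IL4_IL13_TNFa over Control. With scaling by library totals it was -0.48 for IL4_IL13_TNFa over IL4_IL13 and 0.28 for IL4_IL13_TNFa over Control, both still past the threshold. With TMM scaling, all 6 IL4_IL13_TNFa libraries stayed above the highest Control library.

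Cd300e, an activating receptor of monocytes known from human cells to pair with DAP12, ran the other way. Its lowest, median and highest levels were 0.375, 0.804 and 1.42 CPM in IL4_IL13_TNFa libraries, 0.793, 2.02 and 3.51 CPM in IL4_IL13 libraries and 6.83, 9.18 and 13.3 CPM in Control libraries. All cytokine-treated libraries lay below all Control libraries, and the IL4_IL13_TNFa and IL4_IL13 libraries overlapped. The level was 4.5-fold lower in IL4_IL13 than in Control cells (log2 fold change -2.17 ± 0.28), 2.57-fold lower in IL4_IL13_TNFa than in IL4_IL13 cells (-1.36 ± 0.34) and 11.6-fold lower in IL4_IL13_TNFa than in Control cells (-3.53 ± 0.32). Ly6c2, a surface marker of inflammatory monocytes, had 0 to 0.198 CPM in IL4_IL13_TNFa, 0 to 0.178 CPM in IL4_IL13 and 0.118 to 0.447 CPM in Control libraries. Ccr2, their chemokine receptor, had 20.06 to 32.77 CPM in IL4_IL13_TNFa, 110.1 to 153.4 CPM in IL4_IL13 and 44.24 to 204.8 CPM in Control libraries. Their part in the Cd300e levels was not tested.

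Cd300c, an activating receptor best described in human cells, had too few counts to pass the filter. It had 1 to 5 counts per library in IL4_IL13_TNFa (19 in all), 4 to 12 in IL4_IL13 (50 in all) and 3 to 10 in Control libraries (37 in all), and the 3 groups overlapped. With no filter on low counts it was lower in IL4_IL13_TNFa than in IL4_IL13 cells (log2 fold change -1.13, past the threshold, as were all 7 members and 23.4% of 31497 genes there), and its log2 fold changes of 0.56 for IL4_IL13 over Control and -0.57 for IL4_IL13_TNFa over Control were not past it. Cd300c2, its neighbour of 84.6% coding identity, which is not among the 7 and also belongs to the activating arm, was by contrast abundant. Its lowest, median and highest levels were 285.6, 316.2 and 331.6 CPM in IL4_IL13_TNFa libraries, 174.5, 229.6 and 250.6 CPM in IL4_IL13 libraries and 123, 230.8 and 242.7 CPM in Control libraries. All IL4_IL13_TNFa libraries lay above all others, with log2 fold changes of 0.48 ± 0.13 over IL4_IL13 and 0.57 ± 0.13 over Control; the first is 0.27 and not past the threshold with scaling by library totals. Between IL4_IL13 and Control the log2 fold change of Cd300c2 was 0.09 ± 0.13, not past the threshold, and -0.02 without Control replicate 1, and the libraries overlapped.

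The 2 inhibitory members were both lower with TNFa, to very different degrees. Cd300a, an ITIM-bearing receptor for phosphatidylserine and phosphatidylethanolamine, had lowest, median and highest levels of 49.4, 52.4 and 56.1 CPM in IL4_IL13_TNFa libraries, 154.6, 198.1 and 226.4 CPM in IL4_IL13 libraries and 133.8, 250.9 and 272.5 CPM in Control libraries. All IL4_IL13_TNFa libraries lay below all others, and the IL4_IL13 and Control libraries overlapped. Cd300a was 3.75-fold lower in IL4_IL13_TNFa than in IL4_IL13 cells (log2 fold change -1.91 ± 0.14) and 4.45-fold lower than in Control cells (-2.15 ± 0.14). For IL4_IL13 over Control the log2 fold change was -0.25 ± 0.13, not past the threshold. Without Control replicate 1, which had 133.8 CPM against 218.3 to 272.5 CPM in the other Control libraries, it was -0.36 and past the threshold.

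Cd300lf, an ITIM-bearing receptor that binds ceramide and phospholipids and serves as the entry receptor of murine norovirus, had few counts in IL4_IL13_TNFa libraries. These had 1 to 7 counts each, or 0.0696, 0.168 and 0.498 CPM as lowest, median and highest. The lowest, median and highest values were 7.92, 11.8 and 14.78 CPM in IL4_IL13 libraries and 16.7, 18.1 and 31.1 CPM in Control libraries. The 3 groups did not overlap. The level was 50.3-fold lower in IL4_IL13_TNFa than in IL4_IL13 cells (log2 fold change -5.65 ± 0.32) and 96.2-fold lower than in Control cells (-6.59 ± 0.31), both resting on 19 counts over the 6 IL4_IL13_TNFa libraries. It was 1.91-fold lower in IL4_IL13 than in Control cells (-0.94 ± 0.19). Cd300lf lies on the minus strand inside Rab37 (chr11:115091431-115162236, plus strand), and the strand setting of the counting is not given in the sources used here. Over the 6 libraries of a group, Rab37 had 5 counts in IL4_IL13_TNFa, 17 in IL4_IL13 and 29 in Control, too few to be tested, against 19 counts of Cd300lf in IL4_IL13_TNFa, 1151 in IL4_IL13 and 2363 in Control.

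Cd300lg (nepmucin), known as an adhesion receptor of vascular endothelium, had its highest levels in IL4_IL13 cells. Its lowest, median and highest levels were 0.137, 0.193 and 0.378 CPM in IL4_IL13_TNFa libraries (2 to 6 counts each), 14.6, 20.6 and 22.9 CPM in IL4_IL13 libraries and 3.06, 6.66 and 8.17 CPM in Control libraries. The 3 groups did not overlap. The level was 3.12-fold higher in IL4_IL13 than in Control cells (log2 fold change 1.64 ± 0.18), 79.8-fold lower in IL4_IL13_TNFa than in IL4_IL13 cells (-6.32 ± 0.28) and 25.6-fold lower in IL4_IL13_TNFa than in Control cells (-4.68 ± 0.30). The 5 endothelial markers summed to 1.94 to 3.49 CPM in IL4_IL13_TNFa, 6.66 to 17.5 CPM in IL4_IL13 and 5.68 to 22.8 CPM in Control libraries. Of these, Cdh5, which defines endothelium, averaged 0.153 CPM in IL4_IL13_TNFa, 0.874 CPM in IL4_IL13 and 0.940 CPM in Control libraries, and Tek averaged 0.0913 CPM in IL4_IL13_TNFa, 0.0250 CPM in IL4_IL13 and 0.163 CPM in Control libraries. Pecam1, which leukocytes also express, averaged 1.46 CPM in IL4_IL13_TNFa, 6.50 CPM in IL4_IL13 and 0.547 CPM in Control libraries, and like Cd300lg was highest in IL4_IL13. Plvap averaged 0.0114 CPM in IL4_IL13_TNFa, 0.290 CPM in IL4_IL13 and 0.00932 CPM in Control libraries, and Kdr 1.13 CPM in IL4_IL13_TNFa, 1.40 CPM in IL4_IL13 and 9.19 CPM in Control libraries. In IL4_IL13 the SD exceeded the mean for Plvap (0.651 CPM, highest library 1.62 CPM) and for Cdh5 (1.125 CPM, highest library 3.13 CPM). The part of endothelial cells in the Cd300lg levels was not tested.

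**Figure D2:**
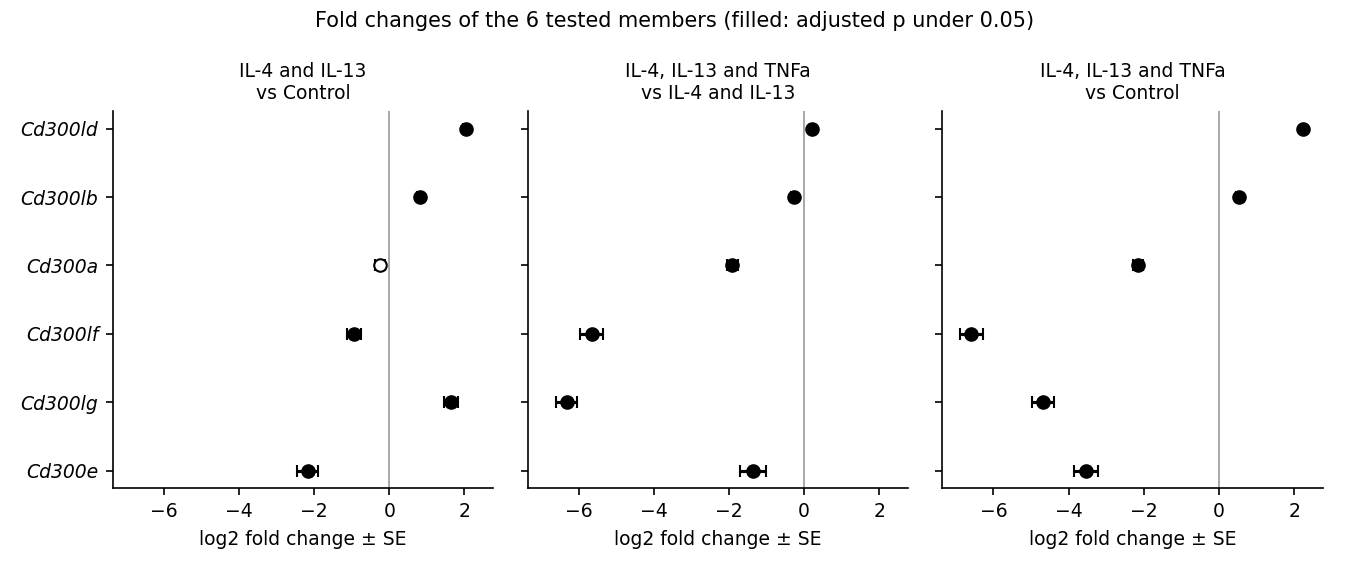
Log2 fold change ± SE of the 6 members that passed the filter on low counts, for IL4_IL13 over Control, IL4_IL13_TNFa over IL4_IL13, and IL4_IL13_TNFa over Control (filled: adjusted p under 0.05). The filling is a description, since the members were chosen on these libraries. With TNFa added to IL-4 and IL-13, 4 members fell by more than 1 on the log2 scale while Cd300ld and Cd300lb moved by less than 0.3.

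Of the 7 members, 6 passed the filter and were tested, and calls were common across the whole table. For IL4_IL13 over Control, 59% of the genes tested were past the threshold (29.3% higher and 29.7% lower), and so were 5 members, of which Cd300ld, Cd300lb and Cd300lg were higher and Cd300e and Cd300lf lower. Without Control replicate 1, 9022 genes in place of 7774 were past it, and 6 members, Cd300a being lower as well. For IL4_IL13_TNFa over IL4_IL13, 59.6% of genes were past it (30.3% higher, 29.3% lower), and 6 members were, with Cd300ld higher and the other 5 lower. For IL4_IL13_TNFa over Control, 73.8% of genes were past it (36.4% higher, 37.3% lower), and 6 members were, with Cd300ld and Cd300lb higher and Cd300a, Cd300e, Cd300lf and Cd300lg lower. Because the members were chosen on these libraries, and the 3 comparisons share groups, nothing is read from these counts. The median log2 fold changes of the 6 members were 0.28, -1.63 and -2.84 in that order of comparisons, against medians over all genes of -0.002, 0.003 and -0.022. Scaling by library totals shifted the median of all genes by -0.042, -0.206 and -0.249 and changed the share of calls that were higher to 44.2%, 27.5% and 32.7%, against 49.7%, 50.9% and 49.4% with TMM.

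Cd300lb and Cd300ld made up nearly all of the summed CPM of the members in IL4_IL13_TNFa cells, whereas Cd300a held a large share in Control cells. These are shares of reads and not of transcripts. They weigh toward Cd300a, which has 4.738 kb of exon against 2.917 kb for Cd300lb and 2.645 kb for Cd300ld. The 7 members together summed to 1133 ± 40.7 CPM in IL4_IL13_TNFa, 1345 ± 47.5 CPM in IL4_IL13 and 752 ± 100.1 CPM in Control libraries (SD, n = 6 each). Cd300lb and Cd300ld made up 95.3% ± 0.269 of that sum in IL4_IL13_TNFa, 83.0% ± 2.05 in IL4_IL13 and 64.3% ± 2.05 in Control libraries. Cd300a made up 4.62% ± 0.265 in IL4_IL13_TNFa, 14.6% ± 1.87 in IL4_IL13 and 30.6% ± 3.52 in Control libraries, and no 2 groups overlapped in this share. Per kilobase, Cd300ld stood at 18.9 ± 1.35 times Cd300a in IL4_IL13_TNFa, 4.44 ± 0.844 times in IL4_IL13 and 0.932 ± 0.202 times in Control libraries. The ratio of Cd300lb to Cd300a was 16.5 ± 0.844 in IL4_IL13_TNFa, 5.38 ± 0.719 in IL4_IL13 and 2.63 ± 0.395 in Control libraries. Between the 2 activating receptors, the ratio of Cd300ld to Cd300lb was 1.15 ± 0.0291 in IL4_IL13_TNFa, 0.820 ± 0.0493 in IL4_IL13 and 0.352 ± 0.0211 in Control libraries. These ratios are within-library quantities and do not depend on the scaling between libraries.

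**Figure D3:**
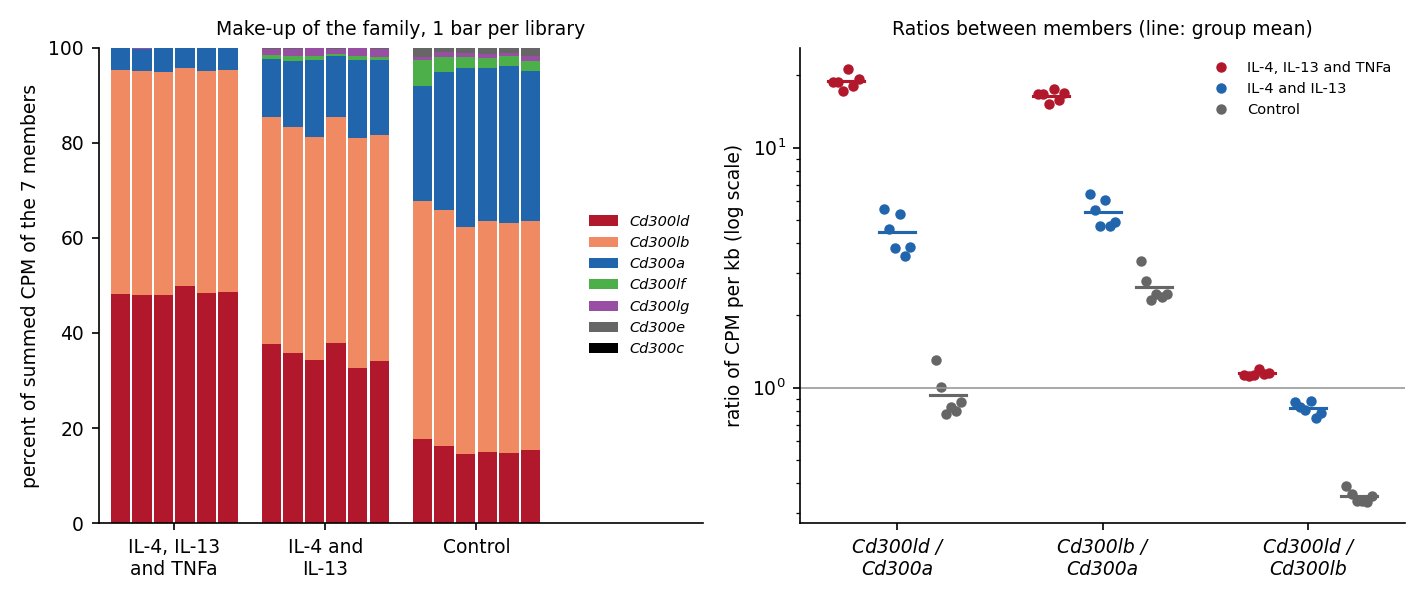
Left, the share of each member in the summed CPM of the 7 members, 1 bar per library, in the IL4_IL13_TNFa, IL4_IL13 and Control groups. Right, ratios of CPM per kb between members (log scale; points: libraries; lines: group means), in which Cd300ld over Cd300a was 17.2 to 21.2 in IL4_IL13_TNFa libraries, 3.54 to 5.56 in IL4_IL13 libraries and 0.780 to 1.31 in Control libraries.

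Along the cluster, the tested genes that were higher in IL4_IL13_TNFa than in Control cells followed each other in map order, with lower genes before and after them. Cd300c, Cd300ld2, Cd300ld4 and Cd300ld5 lie among the higher genes but had too few counts to be placed in this order. By distance, Cd300lb, which was higher, lay nearer an end of the cluster than Cd300e, which was lower. The log2 fold changes, in map order, were -2.15 for Cd300a, 0.53 for Cd300lb, 2.24 for Cd300ld, 0.57 for Cd300c2, 0.73 for Cd300ld3, -3.53 for Cd300e and -6.59 for Cd300lf. Genes of related sequence could lie near each other or far apart in pattern. Cd300ld and Cd300lf share 82.2% of their aligned coding bases and lay farthest apart of all tested pairs, with a root mean square difference of 3.47 between their mean-centred log2 CPM over the 18 libraries. Cd300a and Cd300c2 share 81.3% and differed by 1.21, and Cd300ld and Cd300ld3 share 85.7% and differed by 0.697. The pair nearest in pattern was Cd300lb and Cd300c2, at 0.376, with 63.9% identity. Of windows of 50 transcript bases, 3.9% of those of Cd300ld and 1.9% of those of Cd300lf occur in another Cd300 gene, 1.9% of those of Cd300a do, and none of those of Cd300c, Cd300e, Cd300lb or Cd300lg. For Cd300ld3, Cd300ld4 and Cd300ld5 the shares are 82.1%, 93.8% and 100%, and for Cd300ld2 31.0%, and their counts are uncertain. Cd300ld3 averaged 2.45 ± 0.462 CPM in IL4_IL13_TNFa, 4.12 ± 0.585 CPM in IL4_IL13 and 1.47 ± 0.445 CPM in Control libraries (SD, n = 6 each). Cd300ld2, Cd300ld4 and Cd300ld5 had at most 16 counts over any group of 6 libraries.

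**Figure D4:**
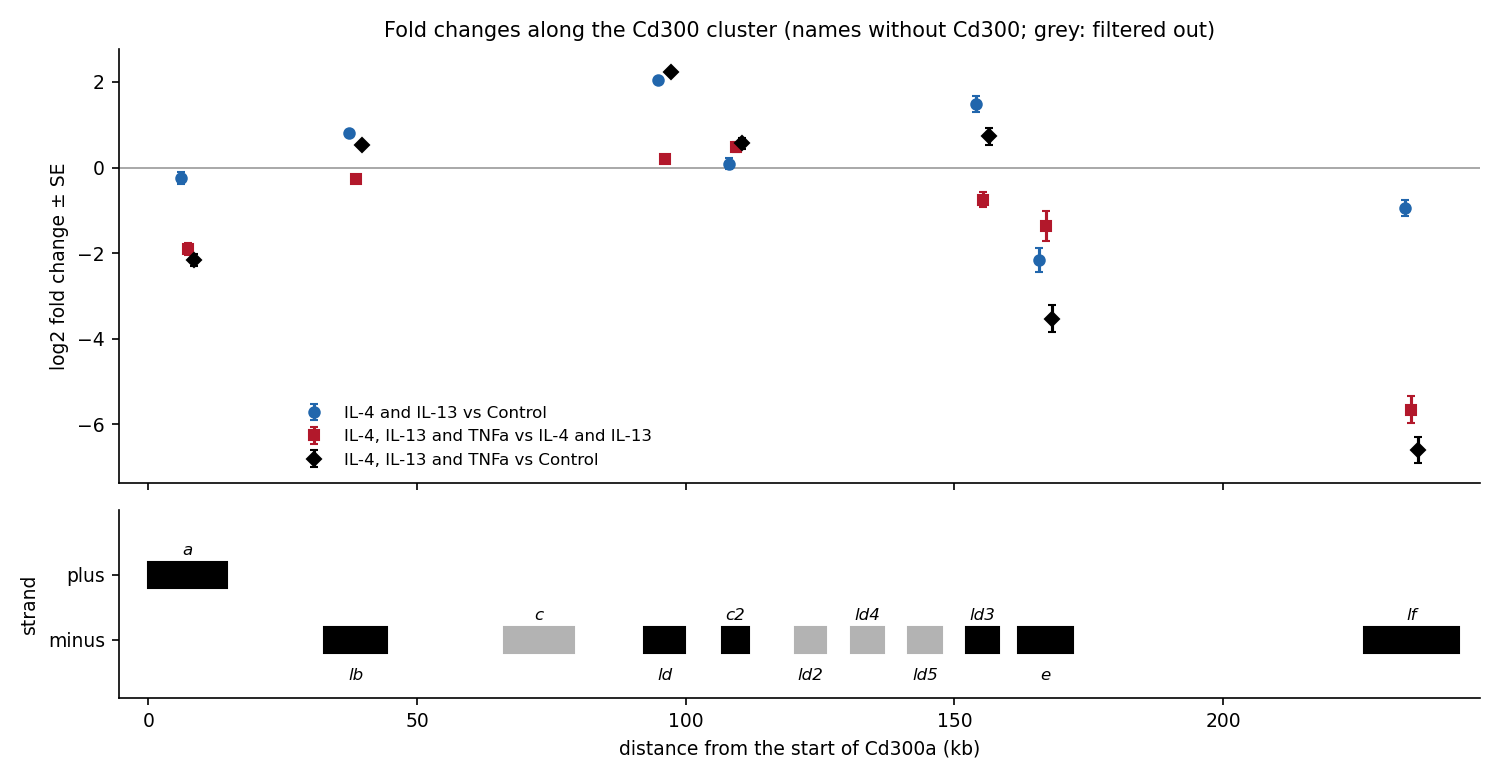
Log2 fold change ± SE of the tested genes of the Cd300 cluster in the 3 comparisons, by distance from the start of Cd300a (kb), above the genes on each strand (black: tested; grey: too few counts). For IL4_IL13_TNFa over Control, Cd300lb, Cd300ld, Cd300c2 and Cd300ld3 lie above 0. Cd300a, before them in map order, and Cd300e and Cd300lf, after them, lie below it.

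Of 15 protein-coding genes within 200 kb of the cluster, 9 were tested. For IL4_IL13 over Control 2 were higher and 3 lower (1 lower with no filter on low counts), for IL4_IL13_TNFa over IL4_IL13 1 was higher and 5 lower (with library totals, 0 were higher), and for IL4_IL13_TNFa over Control 2 were higher and 5 lower. Btbd17 averaged 2.74 ± 0.517 CPM in IL4_IL13_TNFa, 4.69 ± 1.07 CPM in IL4_IL13 and 0.267 ± 0.166 CPM in Control libraries (SD, n = 6 each), with a log2 fold change of 4.12 ± 0.28 for IL4_IL13 over Control (adjusted p = 4.47e-10). Kif19a, a kinesin, averaged 0.703 ± 0.174 CPM in IL4_IL13_TNFa, 2.69 ± 0.699 CPM in IL4_IL13 and 4.85 ± 1.27 CPM in Control libraries (SD, n = 6 each) and fell by 2.78 ± 0.22 on the log2 scale in IL4_IL13_TNFa against Control (adjusted p = 1.55e-09). Gprc5c, an orphan receptor, averaged 6.32 ± 1.48 CPM in IL4_IL13_TNFa and 18.3 ± 8.67 CPM in IL4_IL13 libraries (log2 fold change -1.53 ± 0.43, adjusted p = 0.00512), a call lost with limma voom (-1.35). Fads6, a predicted desaturase, fell in IL4_IL13 against Control, with 2.64 ± 0.444 CPM against 3.47 ± 0.645 CPM (adjusted p = 0.0198), a call lost with no filter on low counts (log2 fold change -0.34) and without the 3 libraries numbered 1 (-0.35).

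Outside the family, the genes nearest in pattern to each member were found among 9931 genes with a mean of at least 5 CPM, as the root mean square difference of mean-centred log2 CPM over the 18 libraries. Nearest to Cd300lb were Ubl3 (0.105) and Igf1 (0.105), the growth factor, which averaged 1309 ± 82.9 CPM in IL4_IL13_TNFa, 1787 ± 125.8 CPM in IL4_IL13 and 898 ± 132 CPM in Control libraries (SD, n = 6 each). Nearest to Cd300ld were Rhoc (0.163), a small GTPase, and Fosl2 (0.185), an AP-1 subunit that averaged 308.6 ± 13.4 CPM in IL4_IL13_TNFa, 266.8 ± 19.1 CPM in IL4_IL13 and 79.2 ± 6.81 CPM in Control libraries. Nearest to Cd300a were Tpcn1 (0.186), a two-pore channel of endolysosomes, and Cracr2b (0.192). Nearest to Cd300e were Plcb4 (0.42), a phospholipase C, and Ssh2 (0.469), a cofilin phosphatase. Nearest to Cd300lf were Rasgrp3 (0.491), a Ras activator that averaged 3.05 ± 0.348 CPM in IL4_IL13_TNFa, 101 ± 13.7 CPM in IL4_IL13 and 141 ± 8.37 CPM in Control libraries, and Tpbgl (0.534). Nearest to Cd300lg were Rnase4 (0.563) and Ang (0.608), neighbouring secreted ribonucleases, and Rnase4 averaged 5.63 ± 1.801 CPM in IL4_IL13_TNFa, 213 ± 33.5 CPM in IL4_IL13 and 98.4 ± 15.8 CPM in Control libraries. The median difference over all candidates was between 0.449 for Cd300lb and 2.72 for Cd300lf.

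The adaptors and kinases through which activating members signal were all expressed, and TNFa went with higher Src, Fgr and Syk transcripts and not with higher Tyrobp or Fcer1g. Of 15 genes, 3 rose and 9 fell in IL4_IL13 against Control, 7 rose and 3 fell in IL4_IL13_TNFa against IL4_IL13, and 7 rose and 7 fell in IL4_IL13_TNFa against Control. Their median log2 fold changes were -0.35, -0.03 and -0.13, against -0.002, 0.003 and -0.022 over all genes. The adaptor Tyrobp averaged 315 ± 18.2 CPM in IL4_IL13_TNFa, 389 ± 48.9 CPM in IL4_IL13 and 450.4 ± 48.0 CPM in Control libraries (SD, n = 6 each). It fell by 0.31 ± 0.08 on the log2 scale in IL4_IL13_TNFa against IL4_IL13 (adjusted p = 0.00391). Fcer1g averaged 316 ± 15.6 CPM in IL4_IL13_TNFa, 333 ± 19.2 CPM in IL4_IL13 and 423 ± 12.5 CPM in Control libraries. It fell by 0.35 ± 0.04 in IL4_IL13 against Control (adjusted p = 2.76e-06) and had a log2 fold change of -0.08 ± 0.04 in IL4_IL13_TNFa over IL4_IL13 (adjusted p = 0.154).

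Syk, the kinase recruited to ITAMs, averaged 995 ± 71.6 CPM in IL4_IL13_TNFa, 417 ± 42.0 CPM in IL4_IL13 and 421 ± 70.7 CPM in Control libraries (SD, n = 6 each), and rose by 1.25 ± 0.10 on the log2 scale in IL4_IL13_TNFa against IL4_IL13 (adjusted p = 2.77e-09). Src itself averaged 249.9 ± 8.83 CPM in IL4_IL13_TNFa, 2.92 ± 0.698 CPM in IL4_IL13 and 3.76 ± 0.667 CPM in Control libraries, a log2 fold change of 6.41 ± 0.13 between IL4_IL13_TNFa and IL4_IL13 (adjusted p = 3.65e-17). Its relative Fgr, with 109 ± 11.95 CPM in IL4_IL13_TNFa and 14.4 ± 1.97 CPM in IL4_IL13 libraries, rose by 2.93 ± 0.11 (adjusted p = 7.33e-14). Lyn, which phosphorylates both ITAMs and ITIMs, differed in direction, at 125 ± 4.97 CPM in IL4_IL13_TNFa, 158 ± 3.65 CPM in IL4_IL13 and 260 ± 14.5 CPM in Control libraries. Its log2 fold change for IL4_IL13_TNFa over Control was -1.06 ± 0.04 (adjusted p = 4.02e-14), and most of that fall was present in IL4_IL13 cells. Plcg2 and Vav1, which act downstream of Syk, were lower in IL4_IL13 than in Control cells by 0.78 and 0.76 on the log2 scale (adjusted p = 4.47e-10 and 3.14e-11). In IL4_IL13_TNFa against IL4_IL13, 9 of the 15 fell with scaling by library totals and 5 without Control replicate 1, in place of 3.

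**Figure D5:**
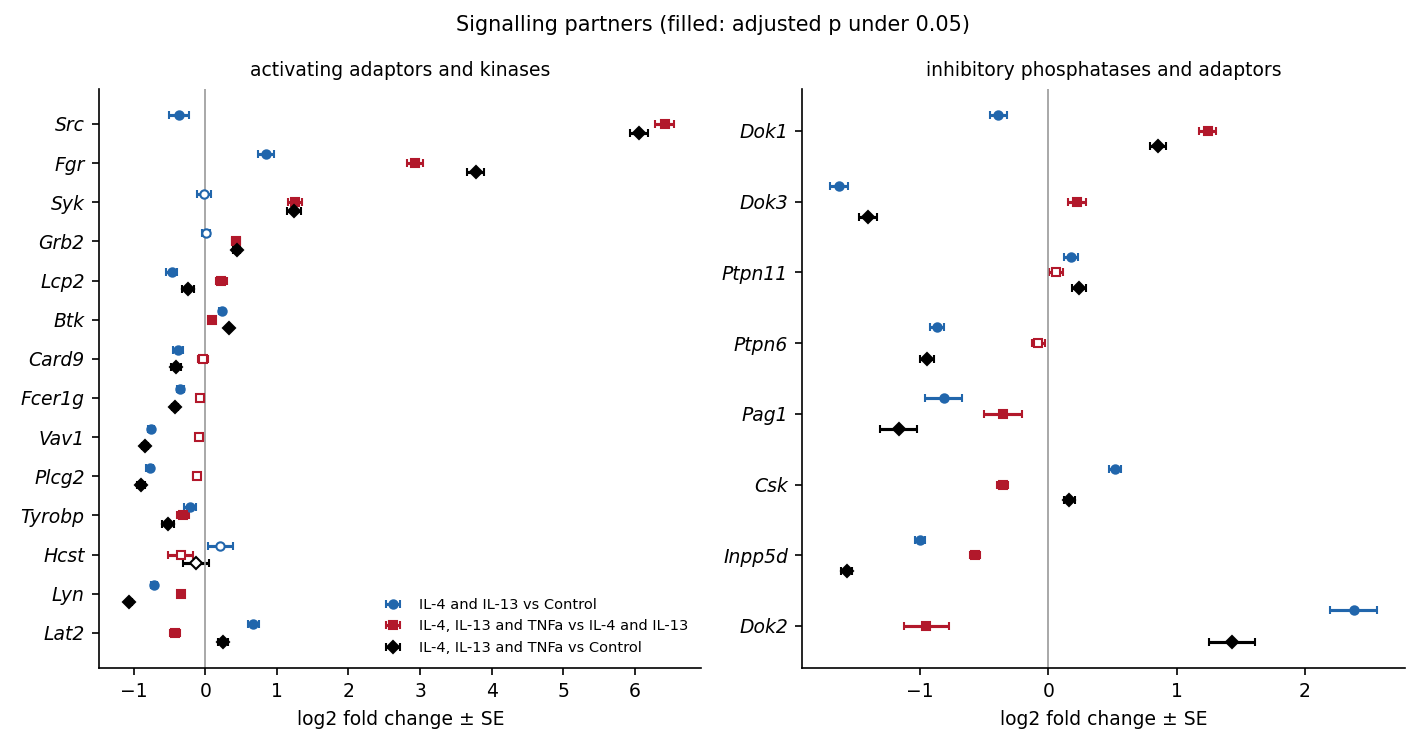
Log2 fold change ± SE of activating adaptors and kinases and of 8 inhibitory phosphatases and adaptors in the 3 comparisons (filled: adjusted p under 0.05). Src, Fgr and Syk lie highest of the genes drawn for IL4_IL13_TNFa over IL4_IL13, and Inpp5d lies below 0 in all 3 comparisons.

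The phosphatases and adaptors of the inhibitory arm moved in both directions. All 8 genes passed the threshold in at least 1 comparison, as did 84.9% of all genes tested. Of the 8, 3 rose and 5 fell in IL4_IL13 against Control (median log2 fold change -0.60), 2 rose and 4 fell in IL4_IL13_TNFa against IL4_IL13 (-0.22), and 4 rose and 4 fell in IL4_IL13_TNFa against Control (-0.39). Inpp5d (SHIP1) averaged 212 ± 4.58 CPM in IL4_IL13_TNFa, 315 ± 20.5 CPM in IL4_IL13 and 630.1 ± 13.1 CPM in Control libraries (SD, n = 6 each), and fell by 1.00 ± 0.04 on the log2 scale in IL4_IL13 against Control (adjusted p = 4.85e-13) and by 0.57 ± 0.04 in IL4_IL13_TNFa against IL4_IL13 (adjusted p = 8.05e-10). Ptpn6 (SHP-1) averaged 202 ± 14.9 CPM in IL4_IL13_TNFa, 213 ± 6.01 CPM in IL4_IL13 and 389 ± 23.9 CPM in Control libraries. It fell by 0.87 ± 0.05 in IL4_IL13 against Control (adjusted p = 7.92e-11) and had a log2 fold change of -0.08 ± 0.05 in IL4_IL13_TNFa over IL4_IL13 (adjusted p = 0.203), which was -0.28 and past the threshold with scaling by library totals. Ptpn11 (SHP-2) rose by 0.18 ± 0.05 in IL4_IL13 against Control (adjusted p = 0.00767). Among the Dok adaptors, which bind phosphatases and RasGAP, Dok2 averaged 141 ± 15.1 CPM in IL4_IL13_TNFa, 273 ± 24.1 CPM in IL4_IL13 and 52.4 ± 22.9 CPM in Control libraries, and Dok3 averaged 47.1 ± 2.17 CPM in IL4_IL13_TNFa, 40.2 ± 3.30 CPM in IL4_IL13 and 125 ± 12.9 CPM in Control libraries. Dok1 rose by 1.24 ± 0.07 in IL4_IL13_TNFa against IL4_IL13 (adjusted p = 9.85e-12). With scaling by library totals, 1 gene rose in IL4_IL13_TNFa against IL4_IL13 and 2 rose against Control.

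Other paired immunoglobulin-fold receptors of myeloid cells were measured beside the family, and 16 of 20 were tested. In IL4_IL13 against Control 3 rose and 9 fell (median log2 fold change -0.93), in IL4_IL13_TNFa against IL4_IL13 7 rose and 8 fell (-0.17), and in IL4_IL13_TNFa against Control 5 rose and 8 fell (-0.71). Pilra, an inhibitory receptor, averaged 32.6 ± 3.83 CPM in IL4_IL13_TNFa, 1.83 ± 0.791 CPM in IL4_IL13 and 9.78 ± 2.54 CPM in Control libraries (SD, n = 6 each), so that it fell by 2.39 ± 0.22 on the log2 scale in IL4_IL13 against Control (adjusted p = 4.04e-08) and rose by 4.13 ± 0.22 in IL4_IL13_TNFa against IL4_IL13 (adjusted p = 1.2e-11). Its activating partners Pilrb1 and Pilrb2 fell and rose in the same comparisons (adjusted p between 4.38e-08 and 2.07e-06), with 2.76 ± 0.498 and 2.44 ± 0.738 CPM in IL4_IL13_TNFa cells and under 0.5 CPM in IL4_IL13 cells. Sirpb1a, Sirpb1b and Sirpb1c, near-identical copies whose reads may be split by the counting, fell in IL4_IL13_TNFa against Control by 3.08 ± 0.28, 2.95 ± 0.25 and 2.96 ± 0.20 (adjusted p = 8.31e-09, 4.32e-09 and 1.27e-10). Treml4 averaged 5.62 ± 1.94 CPM in IL4_IL13_TNFa and 0.766 ± 0.432 CPM in IL4_IL13 libraries (log2 fold change 2.83 ± 0.43, adjusted p = 1.57e-05). Cd300lf and Pilra, both inhibitory, stood on opposite sides in IL4_IL13_TNFa against IL4_IL13 cells.

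Other receptors and bridging proteins for phosphatidylserine, the lipid that Cd300a binds, were mostly lower with TNFa. Of 11 genes 7 were tested: 2 rose and 3 fell in IL4_IL13 against Control (median log2 fold change -0.31), 1 rose and 6 fell in IL4_IL13_TNFa against IL4_IL13 (-1.48), and 1 rose and 5 fell in IL4_IL13_TNFa against Control (-3.07). Mertk, a receptor kinase for dead-cell uptake, averaged 13.04 ± 1.996 CPM in IL4_IL13_TNFa, 36.3 ± 6.13 CPM in IL4_IL13 and 124 ± 34.9 CPM in Control libraries (SD, n = 6 each) and fell by 3.25 ± 0.20 on the log2 scale in IL4_IL13_TNFa against Control (adjusted p = 5.92e-11). Its bridging ligand Gas6 averaged 35.3 ± 2.83 CPM in IL4_IL13_TNFa, 119 ± 12.4 CPM in IL4_IL13 and 369 ± 27.8 CPM in Control libraries and fell by 3.39 ± 0.08 in IL4_IL13_TNFa against Control (adjusted p = 3.19e-17). Pros1, another bridging ligand, averaged 33.8 ± 4.73 CPM in IL4_IL13_TNFa and 111 ± 17.4 CPM in IL4_IL13 libraries (log2 fold change -1.71 ± 0.13, adjusted p = 9.17e-10). Stab1 (stabilin-1) averaged 374 ± 43.6 CPM in IL4_IL13_TNFa, 857 ± 74.7 CPM in IL4_IL13 and 3139 ± 550.9 CPM in Control libraries. Its log2 fold change for IL4_IL13_TNFa over Control was -3.07 ± 0.12 (adjusted p = 2.74e-14). Part of these falls was present without TNFa: for IL4_IL13 over Control the log2 fold changes were -1.77 ± 0.19 for Mertk, -1.64 ± 0.07 for Gas6 and -1.87 ± 0.11 for Stab1. Havcr2 (TIM-3) averaged 6.62 ± 1.19 CPM in IL4_IL13_TNFa and 49.1 ± 18.1 CPM in IL4_IL13 libraries (log2 fold change -2.89 ± 0.28, adjusted p = 4.73e-08). The 1 gene that rose with TNFa was Axl, at 239 ± 8.92 CPM in IL4_IL13_TNFa, 166 ± 16.5 CPM in IL4_IL13 and 171 ± 28.4 CPM in Control libraries. It rose by 0.53 ± 0.09 over IL4_IL13 (adjusted p = 7.44e-05) and by 0.48 ± 0.09 over Control (adjusted p = 0.000132). Of all genes tested, 29.3% fell in IL4_IL13_TNFa against IL4_IL13 and 37.3% against Control.

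Genes that make or expose the lipid ligands moved in both directions. Of 11 genes of phosphatidylserine and phosphatidylethanolamine synthesis and exposure, 3 rose and 3 fell in IL4_IL13 against Control (1 fell with no filter on low counts, 5 with library totals or the replicate block; median log2 fold change -0.05), 5 rose and 4 fell in IL4_IL13_TNFa against IL4_IL13 (0.11), and 4 rose and 4 fell in IL4_IL13_TNFa against Control (0.10). Atp11a, a flippase, averaged 173 ± 11.1 CPM in IL4_IL13_TNFa, 123 ± 12.6 CPM in IL4_IL13 and 103 ± 13.5 CPM in Control libraries (SD, n = 6 each), a log2 fold change of 0.75 ± 0.08 for IL4_IL13_TNFa over Control (adjusted p = 1.39e-07). Xkr8, a scramblase activated in dying cells, averaged 9.57 ± 1.52 CPM in IL4_IL13_TNFa and 6.27 ± 0.341 CPM in IL4_IL13 libraries (0.61 ± 0.10, adjusted p = 3.04e-05). Of 14 genes of ceramide and sphingomyelin metabolism, which handle the ligand of Cd300lf, 4 rose and 4 fell in IL4_IL13 against Control (median -0.002), 5 rose and 3 fell in IL4_IL13_TNFa against IL4_IL13 (0.07), and 6 rose and 5 fell in IL4_IL13_TNFa against Control (0.01). The ceramide synthase Cers6 averaged 279 ± 27.2 CPM in IL4_IL13_TNFa, 161 ± 11.4 CPM in IL4_IL13 and 145 ± 16.9 CPM in Control libraries and rose by 0.95 ± 0.08 in IL4_IL13_TNFa against Control (adjusted p = 3.99e-09), whereas Cers4 fell by 2.77 ± 0.23 to 0.777 ± 0.245 CPM in IL4_IL13_TNFa, against 5.36 ± 1.09 CPM in Control libraries (adjusted p = 2.63e-09). The sphingomyelin synthase Sgms1 averaged 130 ± 8.21 CPM in IL4_IL13_TNFa and 59.9 ± 6.66 CPM in Control libraries (1.12 ± 0.07, adjusted p = 2.08e-11). With scaling by library totals, 2 phospholipid genes and 1 ceramide gene rose and 7 ceramide genes fell in IL4_IL13_TNFa against IL4_IL13, and 3 ceramide genes rose in IL4_IL13_TNFa against Control.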

How the data were processed

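The deposited table held raw counts per Ensembl gene for 18 libraries, 6 per group. Per the submitters' processing notes, the authors used bcl2fastq 2.20.0.422, STAR 2.5.2, featureCounts 1.5.1 and RSEM 1.3.0 with GRCm38. Neither the annotation release nor the strand setting is stated there, although the kit, per the labels' protocols, was a directional one.

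From these counts, 13177 genes passed edgeR's filterByExpr (minimum count 10). They were scaled by TMM and tested with edgeR 4.0.16 (R 4.3.3) by the robust quasi-likelihood test, over all 18 libraries with the group as the only term. The threshold was an adjusted p of 0.05 (Benjamini-Hochberg, over all genes tested). CPM used the TMM-scaled library sizes. Fold changes are model estimates. Their SE was derived from the test, as the absolute log2 fold change divided by the square root of the quasi-likelihood F statistic. Levels per kilobase used the exon union in GENCODE, in which 48348 of 48794 identifiers had a symbol. The script was also run on simulated counts with few changed genes and independent libraries. Here most genes passed the threshold and libraries varied together by replicate number, so that run does not bear on the scaling or the pairing. Alternatives were DESeq2 1.42.0 scaling and test, library totals, other filters, the replicate block, and each library left out.

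Libraries of the same replicate number deviated from their group means together (correlations of 0.128 to 0.671, over 0.1 in 18 of 18 pairs), so the numbers pair the libraries. No 2 libraries of a group agreed within sampling noise (lowest chi-square per degree of freedom 2.72).

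The members and gene lists were chosen with earlier results of these data known. The genes named were the members, the other Cd300 genes, the 4 largest log2 fold changes past the threshold per list and comparison (3 for chromosomal neighbours), the 2 nearest in pattern per member, and Arg1 and Nfkbia as a check of the treatments. Tyrobp, Fcer1g, Ptpn6 and Ptpn11 were also named in comparisons outside this rule, as direct partners of the receptors, with their values known. Axl was named outside it as well, since it moved against the rest of its list. Some genes that this rule names are not reported here.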

Additional observations from a re-analysis of the deposited data

Results flagged for a closer look

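Among the Cd300 genes, 2 values in 24 sets of 6 libraries (8 Cd300 genes in 3 groups) lay far from the rest of their set, both in Control replicate 1, and chance gives such a value in about 1 of 20 sets. Cd300lb had 276.8 CPM in Control replicate 1, against 374.5 to 398.6 CPM in the other Control libraries, a gap of 0.802 of the whole range. Cd300ld had 97.8 CPM there, against 115.8 to 122.7 CPM, a gap of 0.724 of the range. The same library was also lowest for Cd300a, at 133.8 CPM against 218.3 to 272.5 CPM, and for Cd300c2, at 123 CPM against 196.8 to 242.7 CPM, and highest for Cd300lf, at 31.1 CPM against 16.7 to 24.9 CPM. Without it the log2 fold change of IL4_IL13 over Control was 0.74 for Cd300lb, against 0.81 with it. IL4_IL13 replicate 1 was likewise lowest of its group for Cd300a, at 154.6 CPM, and for Cd300c2, at 174.5 CPM. IL4_IL13_TNFa replicate 1 was lowest of its group for Cd300c2, at 285.6 CPM, but not for Cd300a.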

How the results depend on the processing

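Of 486 alternative values for the members' log2 fold changes, 483 kept their direction and their side of the threshold, and none reversed. Since the members were chosen on these libraries, this describes the processing and is no evidence about the family. Cd300a in IL4_IL13 over Control passed the threshold without Control replicate 1 (-0.36) and without the 3 libraries numbered 1 (-0.30), and Cd300ld in IL4_IL13_TNFa over IL4_IL13 did not pass it with library totals (0.002). All 162 counts of genes and members past the threshold stayed within 1.5 times the reported ones. With the replicate block, 8632, 8516 and 10185 genes passed the threshold in IL4_IL13 over Control, IL4_IL13_TNFa over IL4_IL13 and IL4_IL13_TNFa over Control, and 5, 6 and 6 members did. The block changed no member's call, and moved the genes that fell to 5 phospholipid genes in IL4_IL13 over Control and 5 activating adaptors and kinases in IL4_IL13_TNFa over IL4_IL13, in place of 3 each, and the phosphatidylserine receptors that rose in IL4_IL13_TNFa over Control to 2, in place of 1. Of the named genes outside the family, library totals reversed Ano6 (-0.0522) and Etnk1 (-0.16) in IL4_IL13_TNFa over IL4_IL13 and Csk (-0.0843) in IL4_IL13_TNFa over Control. Over all alternatives, 66 of 4581 values of these genes lost their call and 42 gained one. With no filter on low counts the phosphatidylserine receptors that rose in IL4_IL13_TNFa over Control were 2, in place of 1, as they were without Control replicate 6. With the stricter filter fewer list genes were tested, and 11 list counts were lower by over 1.5 times. For Cd300c, Cd300lf and Cd300lg in IL4_IL13_TNFa cells, counts of 7 or fewer per library limit the precision.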
